A study of Mus musculus with 26 samples.

Results

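The cells described here were skin fibroblasts that carried many transcripts of Saa3, Lcn2 and Cxcl5, which encode an acute phase protein, an antimicrobial lipocalin and a neutrophil-attracting chemokine. They were picked from 2 droplet libraries, called tube 1 and tube 2, by a rule on unique molecular identifiers (UMIs), each of which counts 1 captured transcript. A barcode was kept with 500 or more genes detected and at most 10% mitochondrial UMIs. A kept cell with at least 1 Col1a1 UMI and no Ptprc UMI was taken as a fibroblast. A fibroblast with 8 or more UMIs of Saa3, Lcn2 and Cxcl5 together and no UMI of Prg4, the joint-lining lubricin gene, was a member. There were 1725 members among 18172 fibroblasts and 18374 kept cells in tube 1, and 897 among 4728 fibroblasts and 4779 kept cells in tube 2, or 2622 members of 23153 kept cells in all. The comparison group was the other 20278 fibroblasts, always within the same tube.

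The study profiled fibroblasts isolated by flow sorting from skin of mice of the Prrx-Cre strain, with PPF standing for the Prrx1-positive and PNF for the Prrx1-negative populations. Skin was minced and digested with collagenase type IV before sorting. The 2 droplet libraries are labelled as fibroblasts of postnatal ventral skin. The series text describes PPF and PNF cells from caudal and ventral, unwounded and wounded skin, 8 samples in all, pooled with antibody hashtags into the 2 tubes. No label used here ties a hashtag to a sample, so each tube was 1 sample, and wounded skin cannot be told apart from unwounded skin. A further 24 bulk libraries came from ventral skin: PNF at E16.5 (n = 2), E18.5 (n = 4), P1 (n = 4) and P30 (n = 2), and PPF at E16.5 (n = 2), E18.5 (n = 2), P1 (n = 2) and P30 (n = 6). The labels give no wounding for these, although the series text speaks of wound tissue. They name the Cre strain for PPF and PNF alike, give no reporter allele and no sex, and do not say whether libraries of 1 group came from separate animals, so p-values over them measure the spread between libraries, which may be technical.

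Acute phase proteins are secreted defence proteins whose production climbs during inflammation, mostly in liver, with some members such as serum amyloid A3 and lipocalin-2 made locally by fibroblasts, epithelia and macrophages. Interleukin-1, tumour necrosis factor and interleukin-6 are known to drive these genes through NF-kB, C/EBP factors and STAT3. The same signals switch on chemokines of the CXC class, which draw neutrophils, and of the CC class, which draw monocytes. In skin, fibroblasts with such a secretory profile are known from wounds and inflammatory disease.

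The start-site regions of 5 genes of this kind are printed because NF-kB and C/EBP act through short DNA words that can be read in them. They are RefSeq promoter sequences of the mouse build GRCm38.p6, 5′ to 3′ on the gene's strand, cut where the annotation has a UTR. Capitals mark matches to the C/EBP-type word TTNNGNAA or to the kappa-B consensus of NF-kB, both searched on either strand. The regions are Saa3 at chr7:46715701-46715926 (minus strand), Lcn2 at chr2:32387798-32387989 (minus), Cxcl1 at chr5:90890995-90891240 (plus), Cxcl2 at chr5:90903649-90903870 (plus) and Il6 at chr5:30012864-30013113 (plus).
Saa3: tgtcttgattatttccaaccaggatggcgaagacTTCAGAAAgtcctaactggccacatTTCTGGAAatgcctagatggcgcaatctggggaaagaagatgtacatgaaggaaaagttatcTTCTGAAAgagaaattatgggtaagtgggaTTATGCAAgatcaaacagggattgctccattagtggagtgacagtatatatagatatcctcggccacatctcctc
Lcn2: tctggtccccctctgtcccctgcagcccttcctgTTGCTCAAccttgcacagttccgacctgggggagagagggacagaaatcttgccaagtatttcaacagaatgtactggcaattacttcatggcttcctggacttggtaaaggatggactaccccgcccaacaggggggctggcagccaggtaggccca
Cxcl1: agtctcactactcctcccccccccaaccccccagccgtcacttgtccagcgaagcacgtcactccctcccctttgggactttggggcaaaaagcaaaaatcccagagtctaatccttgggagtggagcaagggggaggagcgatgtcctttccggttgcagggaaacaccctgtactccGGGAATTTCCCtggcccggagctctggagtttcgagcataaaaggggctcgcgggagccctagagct
Cxcl2: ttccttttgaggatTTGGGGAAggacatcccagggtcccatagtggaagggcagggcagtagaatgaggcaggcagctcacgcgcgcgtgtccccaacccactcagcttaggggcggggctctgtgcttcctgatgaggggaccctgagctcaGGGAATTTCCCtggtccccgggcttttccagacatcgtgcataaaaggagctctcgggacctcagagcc
Il6: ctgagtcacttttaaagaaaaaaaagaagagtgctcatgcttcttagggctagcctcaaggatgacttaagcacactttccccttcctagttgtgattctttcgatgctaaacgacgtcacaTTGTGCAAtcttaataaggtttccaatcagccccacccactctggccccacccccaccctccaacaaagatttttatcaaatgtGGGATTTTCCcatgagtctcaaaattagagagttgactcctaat

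The Saa3 region held 4 TTNNGNAA matches, which start 216, 191, 129 and 99 bases before the start site. The Lcn2 region held 1, TTGCTCAA, and it overlaps an exon of another Lcn2 transcript. Cxcl1 and Cxcl2 shared the same kappa-B letters, GGGAATTTCC, 71 and 97 bases before their starts, each overlapping a match on the other strand. Il6 had GGGATTTTCC at 44 bases and TTGTGCAA at 128 bases before the start. Among all 32851 RefSeq promoters, 7.25% held a kappa-B match and 36.8% held TTNNGNAA in the 250 bases before the start. Of these promoters, 64 belonged to 52 genes that were at least 2-fold higher in members (described below). Counted per promoter, as those shares are, 14 of the 64 (21.9%) held a kappa-B match and 30 (46.9%) held TTNNGNAA. Counted per gene, with a match in any of its promoters, it was 13 and 27 of the 52, which is not like those shares. A match is a string of letters and not a shown binding site.

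Facts of the whole series that bear on the values are few. Tube 1 held 27519 barcodes and tube 2 held 5567, and 42 barcode sequences occurred in both, 1 of them a member in tube 1 and 8 in tube 2. Members had a median of 3241 UMIs per cell in tube 1, against 2685 in the other fibroblasts, and 4189 against 4548 in tube 2. The median mitochondrial share was 6.47% against 6.46% and 4.70% against 4.12%. A doublet caller marked 0 cells in either tube and was set aside as not working, so doublets were not removed. The bulk libraries held 4264657 to 17190154 counts in genes. Their depth was uneven in content, since haemoglobin and other red cell genes reached 648191 CPM in a PNF library at P30 and 534543 in a library before P30. CPM are counts scaled to a total of 1000000. In bulk that total was also multiplied by a TMM scaling factor of 0.654 to 1.30 per library. Bulk CPM are therefore no exact share of a library.

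The values that chose the members are a description and were not tested. Saa3 (chr7:46711998-46715700) stood at 18455 CPM of UMIs in the members of tube 1 and 1744 CPM in its other fibroblasts, and at 7507 against 2968 CPM in tube 2. Lcn2 (chr2:32384633-32388252) stood at 1221 against 111 CPM and 233 against 110 CPM. Cxcl5 (chr5:90759360-90761624) stood at 379 against 68.4 CPM and 2292 against 566 CPM. The tubes differed in which gene filled the sum: Saa3 gave 92.0% of the members' 3-gene UMIs in tube 1 and 74.8% in tube 2, while Cxcl5 gave 1.89% and 22.8%. Only 147 members of tube 1 and 243 of tube 2 had a UMI of each of the 3 genes. Saa3 made up more than 50% of the sum in 1627 and 771 members, Cxcl5 in 43 and 96. Members led by Saa3 were thus the usual ones and those led by Cxcl5 the less common.

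Members reached a median of 37 UMIs of the 3 genes in tube 1 and 15 in tube 2, against 0 and 4 in the other fibroblasts. In tube 1 the threshold lay in a thin stretch of the distribution, with 68 Prg4-negative fibroblasts at a sum of 7 and 88 at 8. In tube 2 it cut a slope, with 249 cells at 6, 175 at 7, 125 at 8 and 78 at 9, and 51.5% of the members had sums of 8 to 15. In tube 1 the median depth was 3142.5, 3045, 3231 and 3445 UMIs at sums of 6, 7, 8 and 9. In tube 2 it was 4638, 4488, 4010 and 2915 UMIs, and 2892 over sums of 8 to 15 against 4786 over 4 to 7, so members just inside the threshold of tube 2 were shallower than the cells just outside.

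Free RNA in a droplet gives UMIs to cells that do not make the transcript, so cells positive for Ptprc, a leukocyte marker, were read beside the fibroblasts. A sum of 8 or more was reached, Prg4 aside, by 13.9% of fibroblasts in tube 1 at a median depth of 2727 UMIs and by 9 of 123 Ptprc-positive cells (7.32%, exact 95% interval 3.40% to 13.4%) at 1945 UMIs. In tube 2 it was 27.6% of fibroblasts at 4488.5 UMIs and 17 of 50 Ptprc-positive cells (34%, 21.2% to 48.8%) at 2683 UMIs. The tube 2 share at this threshold was therefore not above that of Ptprc-positive cells, and this comparison does not set sums of 8 to 15 in tube 2 apart from background. At 32 or more UMIs the shares were 8.28% against 3.25% in tube 1 and 8.97% against 2% in tube 2. Of the Ptprc-positive cells, 115 of 123 and 50 of 50 also had a Col1a1 UMI.

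Members made up 9.49% of the fibroblasts of tube 1 (exact Clopper-Pearson 95% interval 9.07% to 9.93%) and 19.0% of those of tube 2 (17.9% to 20.1%). These intervals cover counting error only. With each cell thinned to 2000 UMIs before the rule the shares were 10.2% and 15.3%. With a threshold of 32 UMIs, added after the data were seen, they were 5.16% and 4.93%, so that the larger share of tube 2 was found at 8 UMIs and not at 32.

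Gene levels were then compared as the ratio of summed UMI CPM in members over the other fibroblasts of the same tube. With 1 sample per tube there is no test, so a gene is called higher or lower where the ratio was at least 2 or at most 0.5 in both tubes, among 10210 genes with 20 or more UMIs seen or expected in the members of each tube. By that rule 69 genes were higher (0.676% of the 10210) and 21 lower (0.206%). The median gene had a log2 ratio of -0.08 in tube 1 and -0.10 in tube 2. Since the 3 chosen genes take 2.01% and 1.00% of the members' UMIs, the counts were also run with them out of the totals, which gave 70 and 21. All of these genes come from the cells that the rule chose, so the ratios describe them and support nothing further.

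Of 15 other acute phase and antimicrobial genes past the floor, 6 were called higher and 0 lower. In all, 15 had a ratio above 1 in tube 1 and 14 in tube 2, and the median log2 ratio was 1.72 and 0.90. Haptoglobin (Hp), which binds free haemoglobin, stood at 238 against 70.9 CPM in tube 1 (3.35-fold, exact counting interval 3.15 to 3.57) and 959 against 294 CPM in tube 2 (3.27-fold, 3.15 to 3.39). The call of Hp was lost at 5% mitochondrial UMIs, and its share of cells was close to that of Ptprc-positive cells, as given further on. Slpi, an inhibitor of neutrophil proteases, was 3.47-fold and 4.01-fold higher, and Camp, the cathelicidin antimicrobial peptide, 5.92-fold and 2.88-fold. Neither of these was found in a larger share of members than of Ptprc-positive cells in both tubes. Mt2, a metal-binding metallothionein, stood at 2194 against 658 CPM and 3586 against 1532 CPM, and its neighbour Mt1 at 2.99-fold and 1.98-fold, just under the rule. The other 2 of the 6, named after their values were seen, were Saa1, a further serum amyloid A (9.95-fold and 2.24-fold), and Ptx3, a pattern-recognition pentraxin (2.78-fold and 2.54-fold). Saa1 and Saa2 are close copies, and how reads were split between them was not tested. Serpina3n, an acute phase protease inhibitor, was 2.45-fold in tube 1 and 1.30-fold in tube 2.

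Chemokines that draw neutrophils and monocytes were the next group. Of 8 CXC chemokines past the floor, 2 were called higher and 0 lower. Cxcl2 stood at 118 against 49.9 CPM in tube 1 and 1082 against 275 CPM in tube 2, ratios of 2.37 and 3.94. Its relative Cxcl1 had ratios of 1.94 and 2.90. The second called gene was the interferon-induced Cxcl9 (2.33-fold and 3.35-fold), named after its values were seen. The homeostatic Cxcl12, which binds CXCR4, had ratios of 2.21 and 1.35, and Cxcl14 of 1.30 and 1.42. Of 7 CC and CX3C chemokines 1 was called, the monocyte attractant Ccl2, at 361 against 115 CPM (3.13-fold) and 544 against 218 CPM (2.49-fold). Ccl7 had ratios of 2.18 and 1.98, Ccl8 of 1.64 and 1.31, and the eosinophil attractant Ccl11 of 0.99 and 0.91, so within this class the ratios spread from near 1 to about 3.

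Of 8 secreted cytokine genes past the floor, 4 were called higher and 0 lower. Il6, the main inducer of liver acute phase proteins, stood at 51.9 against 22.0 CPM in tube 1 (2.36-fold, 2.07 to 2.67) and 268 against 80.6 CPM in tube 2 (3.33-fold, 3.09 to 3.58). In cells with 1 clear hashtag its ratio in tube 1 was 1.99, under the rule. Csf3, the granulocyte growth factor G-CSF, stood at 7.32 against 1.29 CPM and 92.0 against 26.1 CPM, and Lif, a relative of Il6, had ratios of 3.04 and 3.06. The last was Tnfsf11, the osteoclast factor RANKL (8.44-fold and 2.09-fold), named after its values were seen. Il33, an alarmin, had ratios of 1.99 and 1.62, and Csf1, the macrophage growth factor, of 1.24 and 0.97. Outside the fixed list, Il19, a cytokine of the interleukin-10 family, stood at 54.0 against 3.93 CPM in tube 1 and 55.1 against 12.1 CPM in tube 2.

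Receptors and signal genes of these pathways gave 3 calls. Of 17 inflammatory receptors 1 was higher, Il1rl1, the receptor for Il33 (2.62-fold and 3.52-fold, named after its values were seen). Il1r1, the interleukin-1 receptor, had ratios of 2.14 and 1.57, Osmr, the oncostatin M receptor, of 2.37 and 1.69, and the common subunit Il6st of 1.20 and 0.89. All 20 genes of the NF-kB target and feedback list had ratios above 1 in both tubes, with median log2 ratios of 0.70 and 0.62, but 2 of the 20 passed 2-fold in both. These were Sod2, the mitochondrial superoxide dismutase (3.85-fold and 2.54-fold), and Ptgs2, the inducible cyclooxygenase (3.04-fold and 4.01-fold). Ier3, an early response gene, had ratios of 1.75 and 2.38 and Tnfaip6, which modifies hyaluronan, of 1.63 and 1.94. Over all 10210 genes, 3630 and 3690 had a ratio above 1. The STAT3 and C/EBP list had 10 genes and none past 2-fold in both tubes, with Cebpb at 1.78 and 1.67, Cebpd at 1.43 and 1.19 and Stat3 at 1.45 and 1.23.

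Complement and interferon genes did not share the pattern in both tubes. Of 11 complement genes 0 were called, with a median log2 ratio of 0.40 in tube 1 and -0.13 in tube 2. C3, the central complement component, had ratios of 1.76 and 1.00, and C4b of 1.52 and 0.72. The 15 interferon response genes had medians of -0.11 and -0.13, and 0 were called.

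Matrix genes divided. Of 23 collagen and fibrillar matrix genes 1 was called higher, Tnc, which encodes tenascin-C, a matrix glycoprotein of healing wounds. It stood at 1039 against 289 CPM in tube 1 (3.59-fold, 3.49 to 3.70) and 2137 against 631 CPM in tube 2 (3.39-fold, 3.30 to 3.47). The main collagens were lower, though none by 2-fold: Col3a1 had ratios of 0.75 and 0.84, Col1a2 of 0.68 and 0.74 and the collagen-binding Sparc of 0.68 and 0.79. The whole list took 8.99% of members' UMIs against 11.2% in tube 1 and 7.62% against 8.94% in tube 2. Of 19 remodelling genes 3 were higher. Timp1, an inhibitor of matrix metalloproteinases, stood at 1628 against 734 CPM and 3653 against 1304 CPM. Its call was lost in 5 of 12 alternatives: 4 UMIs, 1000 genes per cell, 5% mitochondrial UMIs, 1 clear hashtag, and the other fibroblasts weighted to the members' depth, which gave the lowest ratio in tube 1 (1.86). Mmp13, a collagenase, had ratios of 3.68 and 2.85 and Mmp9, a gelatinase named after its values were seen, of 2.02 and 3.67. Mmp3, stromelysin, had ratios of 4.03 and 1.97.

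Few 2-fold calls fell in the marker lists of other fibroblast states, though some list medians were lower. Median log2 ratios were -0.08 and -0.10 over all genes, -0.42 and -0.34 for reticular and adipogenic genes, and -0.43 and -0.15 for universal and fascia genes. They were -0.63 and -0.29 for cell cycle, -0.50 and 0.14 for contractile, and -0.03 and 0.03 for papillary genes. None of 13 universal and fascia genes was called, and Pi16 had ratios of 1.05 and 1.02. None of 9 papillary genes was called, although Pdpn, podoplanin, had ratios of 1.81 and 1.97. Of 9 reticular and adipogenic genes 1 was lower, Ebf2 (0.47 and 0.49, named after its values were seen). Contractile, cell cycle, glycolysis and dissociation lists (13, 12, 15 and 15 genes) had 0 called, and the dissociation list took 1.27% of members' UMIs against 1.14% in tube 1 and 0.979% against 0.969% in tube 2. Of 23 growth factor and Wnt or BMP genes 2 were higher, Fst, the activin antagonist follistatin (2.18-fold and 2.50-fold), and Ereg, the EGF receptor ligand epiregulin (2.56-fold and 2.99-fold, named after its values were seen). Prrx1, which defines the lineage in the study, had ratios of 0.90 and 0.95.

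The largest ratios belonged to genes outside these lists. Ranked by the smaller of their 2 ratios, the first were Prok2, a secreted prokineticin (15.3-fold and 6.47-fold, at 5.85 and 6.43 CPM), Il19, Aldh1a2, which makes retinoic acid (10.5-fold and 4.51-fold), and Serpina3f, a serine protease inhibitor (7.65-fold and 3.84-fold). The LIM-domain gene Lmcd1 (3.92-fold and 3.65-fold) and Il13ra2, a decoy receptor for interleukin-13 (3.60-fold and 3.23-fold), followed. Cemip, which breaks down hyaluronan, had ratios of 8.80 and 3.18, and Epas1, the hypoxia-inducible factor HIF-2 alpha, of 8.53 and 3.13 at 139 and 130 CPM. The others of the top 20 were Acat3, the Notch ligand Dll1 (5.06-fold and 3.05-fold), the guidance protein Draxin (4.67-fold and 2.98-fold) and the Ras-like gene Rasd1 (5.65-fold and 2.89-fold). Few cells carried the rarest of them: Prok2 had a UMI in 1.68% of the members of tube 1.

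The 21 lower genes stood at 75.5 CPM or less in the other fibroblasts. The 10 with the lowest ratios were S100a3, Sema3g, Rassf4, Cspg4, Zfp677, Krt17, Ntrk3, Gpha2, Adamts18 and Adcy1. Sema3g, a class 3 semaphorin, had ratios of 0.34 and 0.38 and Ntrk3, the neurotrophin-3 receptor, of 0.43 and 0.39. Krt17, a keratin of hair follicle epithelium, had ratios of 0.10 and 0.43 and turned to 1.29 in tube 2 with a threshold of 4 UMIs and to 2.07 without cells carrying markers of another type. S100a3, a hair calcium-binding protein, had ratios of 0.36 and 0.07, and its 75.5 CPM in the other fibroblasts of tube 2 came from the 1.64% of those cells that had a UMI.

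**Figure D1:**
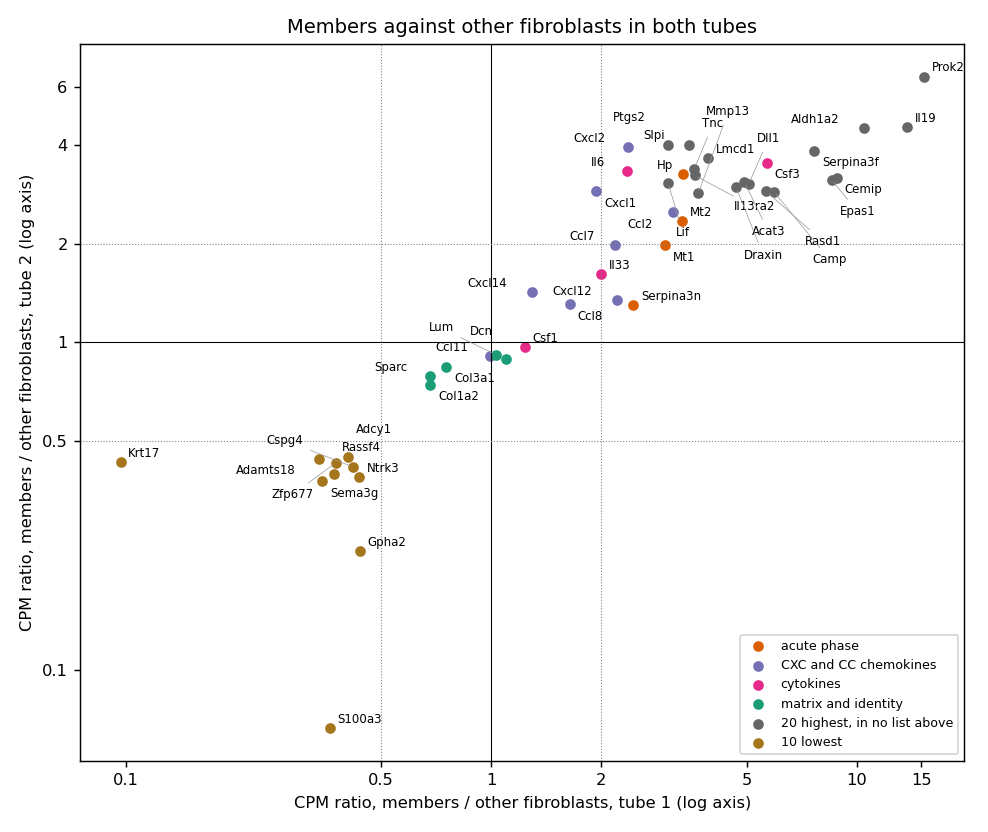
CPM ratio of members over other fibroblasts in tube 1 (x, log axis) and tube 2 (y, log axis) for the named genes, coloured by group, with dotted lines at 2 and 0.5. Hp, Csf3, Il6, Cxcl2, Ccl2 and Mt2 lie above 2 in both tubes, while Col3a1, Col1a2 and Sparc lie between 0.5 and 1.

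As with the chosen genes, Ptprc-positive cells were read beside the members, with the same limit that they carried fibroblast transcripts as well. With each cell thinned to 2000 UMIs, the share of members with a UMI exceeded that of Ptprc-positive cells in both tubes for 20 of the 27 named higher genes. These genes were named for being high in members, so the count is a description and no test. The Ptprc-positive cells were few, so a rare gene could be missed in them. In tube 1 Cemip had a UMI in 1.18% of members and 0% of Ptprc-positive cells. Tnc was found in 49.9% of 1440 members and 15% of 60 Ptprc-positive cells in tube 1, and in 74.3% of 835 members and 42.9% of 35 in tube 2. Sod2 was found in 40.3% against 13.3% and 46.7% against 31.4%, and Il6 in 7.92% against 1.67% in tube 1. Unthinned, Tnc had a UMI in 53.8% and 87.6% of members and Sod2 in 54.6% and 64.8%. Hp was close to the share of Ptprc-positive cells, at 9.03% against 8.33% in tube 1 and 22.6% against 20% in tube 2. It is not set apart from those cells or from background by this. The 7 genes not above the share of Ptprc-positive cells in both tubes were Camp, Cxcl2, Dll1, Lmcd1, Mmp13, Prok2 and Slpi. Whether leukocytes make some of these themselves was not tested.

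Levels of some genes, Tnc and Timp1 among them, rose steadily with the 3-gene sum across all Prg4-negative fibroblasts, not only at the threshold. Those of others rose less evenly. The cells were put into 6 bands, with sums of 0, 1 to 3, 4 to 7, 8 to 15, 16 to 31 and 32 or more. In tube 1, Tnc stood at 172, 196, 432, 535, 647 and 1377 CPM in that order, and Timp1 at 349 to 1941 CPM from the first to the last band. In tube 2, Tnc went from 209 to 3603 CPM and Timp1 from 520 to 5964 CPM. Hp was near 8 CPM in the lowest bands of tube 1 (7.9 and 7.4) and 353 in the highest. In tube 2 Hp stood at 65.5, 76.5, 50.8, 210, 204 and 2036 CPM, so it did not rise steadily there. Csf3 was at 0.1 CPM in the lowest band and 11.1 in the highest in tube 1, and at 4.3 and 198 CPM in tube 2. In tube 2, Cxcl2 stood at 49.8 CPM in the lowest band and 2095 in the highest, and Il6 at 31.3 and 486 CPM. In tube 1 Cxcl2 was uneven, at 25.6, 40.8, 62.8, 68.6, 49.4 and 162 CPM.

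Collagen ran the other way. Col1a1 stood at 24038 CPM in the lowest band and 12862 in the highest in tube 1, and at 26897 and 12913 CPM in tube 2. Col3a1 stood at 29950 and 20023 CPM in tube 1 and 17391 and 12542 CPM in tube 2. Pi16 kept within 505 to 573 CPM and 511 to 607 CPM over the bands. The 2 tubes parted in C3, which went from 661 to 1401 CPM in tube 1 and from 426 to 523 CPM in tube 2. The highest band held 938 cells in tube 1 and 233 in tube 2, where its median depth was 7898 UMIs.

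**Figure D2:**
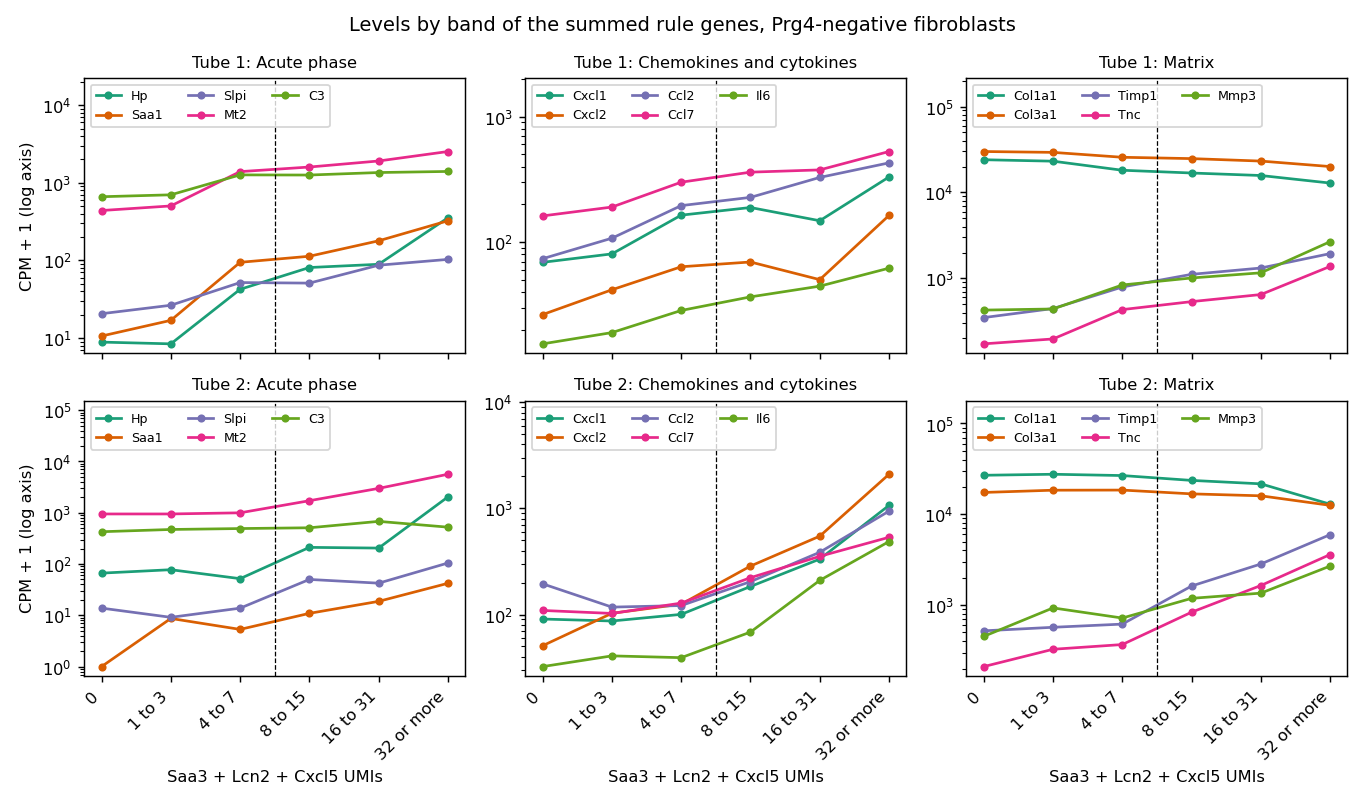
Levels (y, CPM plus 1, log axis) of acute phase, chemokine and cytokine, and matrix genes in 6 bands of the summed Saa3, Lcn2 and Cxcl5 UMIs (x) in Prg4-negative fibroblasts, tube 1 above and tube 2 below, with the dashed line at the threshold. Tnc, Timp1 and Mt2 are highest in the last band and Col1a1 lowest, in both tubes.

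The genes whose level per cell was most like the 3-gene sum were found by Pearson's r over all fibroblasts, 18172 in tube 1 and 4728 in tube 2, on the log of UMIs per 10000. They were Mt2 (r of 0.39 and 0.48), Mt1 (0.38 and 0.49), Tnc (0.36 and 0.52), Sod2, Fth1, Epas1, Timp1 (0.34 and 0.54), Slc39a14, Angptl4 and Chl1. Fth1 encodes the ferritin heavy chain and Slc39a14 a zinc and iron importer. Cells of 1 tube share a library and its depth, so these values carry no p.

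Within the members Saa3 and Lcn2 went together and Cxcl5 did not follow them. Saa3 and Lcn2 had r of 0.38 in tube 1 (1725 cells) and 0.34 in tube 2 (897 cells), while Cxcl5 had r of -0.10 and -0.12 with Saa3 and 0.01 and 0.02 with Lcn2. The genes most like Cxcl5 were Cxcl1 (0.35 and 0.42), Ptx3 (0.31 and 0.37), Cxcl2 (0.31 and 0.44), Tnc (0.31 and 0.47), Timp1, Ptgs2, Ccl2 (0.23 and 0.41), Csgalnact1, Il1rl1 and Il6 (0.22 and 0.42). The genes most like Saa3 after Lcn2 were Rarres2, which encodes the chemoattractant chemerin (0.33 and 0.26), Fth1, Cxcl12 (0.24 and 0.21), Epas1, Tmem176b, Mt1, Serpina3n, C3 (0.15 and 0.21) and Mmp3. The first set holds inducible chemokines, Il6 and Ptgs2, and the second holds Lcn2, Cxcl12, C3 and Serpina3n. The rule adds the 3 genes up, so a cell low in 1 had to be high in another, which by itself lowers these correlations.

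The rule also left out fibroblasts with the same sum that carried Prg4. There were 802 in tube 1, 31.7% of the fibroblasts with 8 or more UMIs of the 3 genes, and 407 in tube 2 (31.2%). They were deeper than the members, with median UMIs of 4937.5 against 3241 and 7447 against 4189. Their Hp stood at 725 CPM against 238 in members in tube 1 and 1360 against 959 in tube 2, and their Cxcl1 at 655 against 261 and 720 against 576. Tnc stood at 1267 against 1039 and 2073 against 2137 CPM, and Timp1 at 3615 against 1628 and 4563 against 3653. Mt2 stood at 2133 against 2194 and 4174 against 3586 CPM, and Il6 at 67.1 against 51.9 and 270 against 268. High levels of these genes were thus not particular to the members. Slpi was lower in the Prg4-positive cells, at 49.4 against 87.0 and 44.2 against 69.9 CPM. Il19 was at 8.36 CPM in them against 54.0 in tube 1, and at 45.1 against 55.1 in tube 2. These cells count among the other fibroblasts above. Without them, an alternative added after the data were seen, 121 genes were higher and 36 lower.

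Hashtags 1 to 6 gave the members' share in 12 sets of cells, 6 per tube, whose condition the labels used here do not give. Nor do they say that a number marks the same sample in both tubes, and the tag 5 cells differed, with the female transcript Xist at 920 CPM in tube 1 and 55.1 in tube 2. The tags are therefore read within each tube. A cell had a tag where its top tag had 10 or more UMIs and 3 times the next one, which left 55.1% of the fibroblasts of tube 1 and 69.0% of tube 2 without a tag. In tube 1 the share of members was 11.3% for tag 1 (85 of 752), 8.87% for tag 2 (41 of 462), 22.2% for tag 3 (73 of 329), 7.14% for tag 4 (452 of 6331), 8.94% for tag 5 (11 of 123) and 25.7% for tag 6 (44 of 171). In tube 2 it was 23.0% (32 of 139), 16.7% (8 of 48), 31.7% (33 of 104), 12.0% (93 of 774), 4.35% (2 of 46) and 9.04% (32 of 354). In tube 1 tags 6 and 3 had the highest shares, with exact intervals of 19.4% to 33.0% and 17.8% to 27.1%. In tube 2 tag 3 had the highest (22.9% to 41.6%), and its interval overlapped those of tags 1 and 2, while tag 6 had 6.27% to 12.5%. These intervals cover counting error only, in the fibroblasts that had a tag, and cells are not replicates of a condition. Median depth over the tags ran from 2432 to 3377.5 UMIs in tube 1 and from 3279.5 to 7281 in tube 2, where tag 3 was the deepest and tag 6 the shallowest. Cells without a tag were members in 10.2% and 21.4% of cases.

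**Figure D3:**
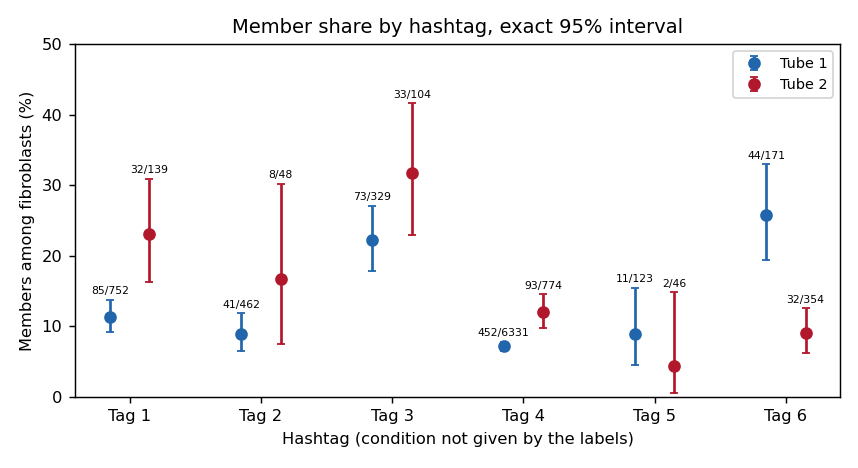
Share of fibroblasts that were members (y, percent) for hashtags 1 to 6 (x) in tube 1 and tube 2, with exact 95% binomial intervals and the cell numbers above each point. Tag 3 lies at 22.2% and 31.7%, and tag 6 at 25.7% in tube 1 and 9.04% in tube 2.

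Markers of other cell types were read in the members for the whole of each list. The 6 fibroblast markers summed to 75030 CPM in tube 1 and 66282 CPM in tube 2, against 96324 and 82187 CPM in the other fibroblasts. That list holds Col1a1, which the rule required, so its sum is no check of the cell type. The 12 macrophage and dendritic markers summed to 39.8 against 57.7 CPM in the other fibroblasts of tube 1 and 41.0 against 44.3 CPM in tube 2, with Itgax at 0. The 8 neutrophil markers summed to 33.0 against 17.7 CPM and 53.2 against 38.8 CPM, with Ly6g at 0 in both tubes. Mast cell markers were at 28.9 against 33.1 CPM and 63.9 against 24.8 CPM. Endothelial markers were at 61.0 against 25.3 CPM and 38.0 against 22.6 CPM, of which Flt1, a VEGF receptor, gave 56.6 and 33.6, while Cdh5 and Emcn were at 0. Keratinocyte markers were lower in members, at 39.2 against 79.0 CPM and 58.7 against 86.1 CPM. Without cells holding 3 or more UMIs of any such list, 72 genes were higher and 18 lower.

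The bulk libraries played no part in choosing the cells and are the place where these genes could be tested. They were sorted fibroblasts of unstated wound status, and in bulk RNA fewer cells of a type and less RNA per cell cannot be told apart. edgeR's quasi-likelihood test with Benjamini-Hochberg adjustment over 15559 genes compared PPF with PNF, averaged over 4 ages, and P30 with the 3 earlier ages, averaged over both lineages. Of all genes, 13 (0.0836%) were higher and 92 (0.591%) lower in PPF, and 509 (3.27%) were higher and 112 (0.72%) lower at P30. At an unadjusted p under 0.05 there were 2164 of the 15559 genes for lineage and 2635 for age. Both splits turned without the PNF P30 B library, to 1369 higher and 205 lower in PPF and to 377 higher and 1949 lower at P30.

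Among the chosen genes Saa3 was the one with clear levels in some bulk libraries. It was at 0 and 2.03 CPM in PNF E16.5, 12.4 and 1.92 in PPF E16.5, 0, 3.30, 0 and 0 in PNF E18.5, and 0 and 0 in PPF E18.5. The PNF libraries of P1 had 0, 133, 5.00 and 3.82 CPM and the PPF ones 47.0 and 31.6. At P30 the PNF libraries had 0 and 7.35 CPM, and the PPF ones ran from 0.22 through a median of 4.16 to 80.9. The groups overlap, and single libraries reach well above the rest of their group. Neither difference passed edgeR's test (PPF against PNF log2 -0.18, adjusted p = 0.994, and P30 against earlier log2 1.84, adjusted p = 0.526). Lcn2 was at 0 in 12 of 16 earlier libraries and 5 of 8 at P30, with a highest value of 13.1 CPM in a PNF P1 library (edgeR adjusted p = 0.315 for age). Cxcl5 did not pass the filter on low counts and was at most 0.449 CPM.

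Of the 69 genes higher in members, 53 could be tested in bulk. With edgeR 0 of the 53 differed between PPF and PNF in either direction at an adjusted p under 0.05, where 0.591% of all genes were lower, and 11 had an unadjusted p under 0.05, where 2164 of 15559 genes did. DESeq2 called 3 lower in PPF (Pde4b, Ptgs2 and Slfn2), and limma-voom called 1 higher (Fst) and 1 lower (Slc9a3r1). Mean Ptgs2 in PPF and PNF was 0 and 49.0 CPM at E18.5, but 162 and 162 at P1. Over all 15559 genes DESeq2 called 123 higher and 713 lower in PPF, and limma-voom 137 and 645. The median log2 difference of the 53 was -0.62, against -0.14 over all genes. Marker genes of other cell types moved with lineage: neutrophil markers summed to 66.3 to 3605 CPM over the 12 PNF libraries (median 339) and 0.15 to 158 over the 12 PPF libraries (median 15.6), macrophage markers to medians of 199 and 19.7, and mast cell markers to medians of 1736 and 7.05, while the 6 fibroblast markers had medians of 11660 and 25009. Their part in the result was not tested.

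Between P30 and the earlier ages 1 of the 53 rose and 0 fell with edgeR, with 12 at an unadjusted p under 0.05, where 2635 of 15559 genes were. DESeq2 called 2 higher (Il6 and Draxin) and 4 lower (Tnc, Flt1, Calca and Sox11), and limma-voom 2 higher (Il6 and Rasd1) and 3 lower (Fst, Calca and Sox11). The median log2 change was 0.12 against -0.05 over all genes. The 1 by edgeR was Il6 (chr5:30013114-30019981). It was at 10.2 and 17.7 CPM in PNF E16.5, 52.4 and 12.9 in PPF E16.5, 118, 18.9, 10.0 and 12.1 in PNF E18.5 and 0 and 0 in PPF E18.5. The PNF libraries of P1 had 35.4, 587, 428 and 279 CPM and the PPF ones 448 and 1161. At P30 the PNF libraries had 72.2 and 166 CPM, and the PPF ones ran from 145 through a median of 216 to 325. P30 libraries lay above those of E16.5 and most of E18.5 but below most of P1. The fitted log2 change was 3.01 (edgeR adjusted p = 0.00499). The fit gives each age and lineage equal weight on the log scale, and PPF E18.5 was at 0 in both libraries, so the size of this value is no bound. The plain means were 200 ± 86.8 CPM (SD, n = 8) at P30 and 199 ± 320 CPM (SD, n = 16) before, with medians of 178 and 27.1. It was not called with libraries A and B alone (log2 2.64, adjusted p = 0.167 by edgeR).

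**Figure D4:**
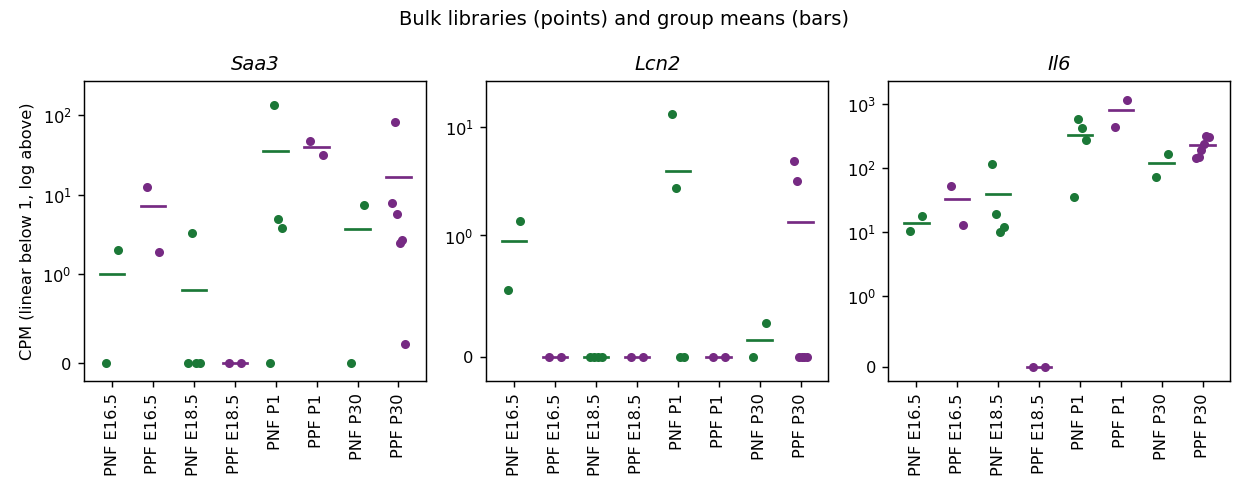
CPM (y, linear below 1 and log above) of Saa3, Lcn2 and Il6 in each bulk library (points) by lineage and age (x), with group means as bars. Saa3 and Lcn2 have many libraries at 0, and Il6 is highest at P1 and at 0 in both PPF E18.5 libraries.

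Among the rest of the members' higher genes, Mt2 ran from 48.6 to 1298 CPM before P30 (median 233) and 112 to 1503 at P30 (median 727), with a log2 change of 0.55 (edgeR adjusted p = 0.450). Sod2 had medians of 175 and 178 CPM before and at P30 (adjusted p = 0.947). Rasd1 had medians of 67.5 and 117 CPM and a log2 change of 1.05 (adjusted p = 0.141). It was called by limma-voom (log2 1.24, adjusted p = 0.0143) and by edgeR without PNF P1 A (log2 1.26, adjusted p = 0.0293). Ptgs2 had medians of 92.1 and 13.2 CPM and was at 0 in 4 of 16 and 3 of 8 libraries (adjusted p of 1.00). With all libraries none of these 4 passed edgeR's test, and their ranges overlap.

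Of the 18 acute phase genes tested, 5 rose at P30 by edgeR (3.27% of all genes did) and 0 fell, with 7 at an unadjusted p under 0.05, and the median log2 change was 1.12 against -0.05 over all genes. Against lineage edgeR called 0 of 18, with 1 at an unadjusted p under 0.05. DESeq2 called 1 lower in PPF (Serpina3n), where it called 713 of all genes lower, and limma-voom 0. Mean Serpina3n in PPF and PNF was 28.9 and 41.0 CPM at E16.5 and 0 and 24.1 at E18.5. It was 159 and 46.1 CPM at P1 and 1595 and 260 at P30. The fit weights the ages equally on the log scale, so this call is not a lower level at each age. The 5 that rose, named after their values were seen, were the same with DESeq2 and limma-voom, which called 1040 and 580 of all genes higher. Serpina3n had the highest level, at 0 to 186 CPM in the 16 earlier libraries (median 32.1) and 170 to 3798 at P30 (median 800), with 1 earlier PPF P1 library above the lowest P30 value and a log2 change of 5.73 (edgeR adjusted p = 0.00207). At P30 it was at 170 and 350 CPM in PNF and 649 to 3798 in PPF. Cell type markers moved with age as well: the 6 fibroblast markers summed to a median of 26958 CPM at P30 and 12343 before, keratinocyte markers to 664 and 2756, and red cell markers to 2733 and 12574. Mast cell markers had medians of 14.7 and 1666, neutrophil markers of 18.4 and 116, and melanocyte markers of 131 and 9.31. The part of these markers in the result was not tested.

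The other 4 were lower in level. Serpina3m, a close paralogue whose reads may be shared with it, had medians of 0 and 56.7 CPM (log2 7.84, edgeR adjusted p = 0.00211) and stood at 0 in 9 of 16 earlier libraries. Cp, the copper carrier ceruloplasmin, had medians of 1.41 and 11.5 CPM (log2 3.84, edgeR adjusted p = 0.00827). Without the PNF P30 B library neither was called, and Cp turned to a log2 of -0.80. Lbp, which binds bacterial lipopolysaccharide, had medians of 9.55 and 114 CPM (log2 3.25, edgeR adjusted p = 0.0126) and Lrg1, a leucine-rich glycoprotein, of 3.05 and 60.1 CPM (log2 3.80, edgeR adjusted p = 0.0341). These medians pool unequal numbers of PPF and PNF libraries. Mean Lrg1 was 41.0 CPM at P1 and 157 at P30 in PPF, but 117 and 19.0 in PNF. Mean Lbp was 37.1 and 268 CPM in PPF, and 26.8 and 49.0 in PNF. The call of Lbp held in 19 of 24 fits that left out 1 library, and was lost without PNF E16.5 A or B, PPF E16.5 B, or PPF P1 A or B (adjusted p at most 0.0597 by edgeR). That of Lrg1 held in 15, and was lost without any of these 5, PPF E16.5 A, PNF P30 A, or PPF P30 C or D (adjusted p at most 0.0967 by edgeR). With libraries A and B alone none of the 5 acute phase genes was called (edgeR adjusted p of 0.0617 to 0.474). The log2 changes there were 5.95 for Serpina3n, 7.99 for Serpina3m, 3.97 for Cp, 2.02 for Lbp and 2.67 for Lrg1. In the single cells these 5 genes had member ratios of 1.49 to 8.16 in tube 1 and 1.04 to 1.84 in tube 2, and none was called higher in both.

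Chemokine and complement genes were read against the 3.27% of all genes that were higher at P30 by edgeR. DESeq2 and limma-voom called 1040 and 580 of the 15559 genes higher at P30. With lineage they called 713 and 645 lower in PPF, and 123 and 137 higher. With age, Cxcl13 of 12 CXC genes and Ccl8 and Ccl19 of 11 CC and CX3C genes were higher at P30 by edgeR, and 0 were lower (3 and 4 at an unadjusted p under 0.05). DESeq2 called 2 and 3 higher and limma-voom 0 and 3, with 0 lower by either. With lineage, 0 of 12 CXC genes were called (3 at an unadjusted p under 0.05, 2 lower by DESeq2 and 1 by limma-voom), and Ccl3 of the 11 CC and CX3C genes was lower in PPF by edgeR (5 at an unadjusted p under 0.05). DESeq2 did not call Ccl3, and called Ccl19 higher and Cx3cl1 and Ccl5 lower, while limma-voom called Ccl3, Ccl4 and Ccl5 lower. Of 9 complement genes, 4 were higher at P30 by edgeR (Serping1, C3, C1ra and C4b) and 0 lower, with 6 at an unadjusted p under 0.05, 5 higher by DESeq2 and 4 by limma-voom. Cxcl2 and Ccl2, called higher in the members, were not among the genes called in either bulk comparison by edgeR. Nor was Cxcl1, whose member ratio in tube 1 was just under 2.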

How the data were processed

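The single-cell files hold raw UMI counts per gene and barcode as deposited by the authors (matrix software version 3.1.0, per the file headers). The submitters' processing notes name the mm10 build and Seurat 3.2 and 3.1.1. The bulk files hold read counts per transcript with FPKM values beside them, as deposited by the authors and named for featureCounts. The FPKM were not used, and no source used here names the aligner. Bulk transcripts were joined to GENCODE genes (82946 of 95883 matched, with 5.25% of counts unmatched), and counts were summed per gene. UMI sums per tube and cell class were scaled to CPM, ratios have exact counting intervals, and shares have exact Clopper-Pearson intervals. Bulk counts were tested with edgeR 4.0.16 (quasi-likelihood, TMM, filterByExpr, all 24 libraries, threshold 0.05), with DESeq2 1.42.0 and limma 3.58.1 as alternatives, in R 4.3.3, after a test on simulated data. Genes are named by rule: the 20 highest and 10 lowest by the less extreme ratio, up to 4 per list with the most UMIs, and in bulk the 8 most abundant of the higher genes plus any that passed. The members and all lists were chosen with earlier results of these data known.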

Additional observations from a re-analysis of the deposited data

Results flagged for a closer look

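In the bulk libraries, 46 sets of values were checked, each of 1 named gene in 1 group of 4 to 6 libraries. In 12 of the 46, 1 value lay far from the others by Dixon's test. The test flags about 1 set in 20 by chance where values are normal and sets independent. These sets share libraries and some hold zeros, so that rate need not apply. Saa3 stood at 3.30 CPM in PNF E18.5 B with the others at 0, at 133 in PNF P1 B with the next at 5.00, and at 80.9 in PPF P30 B with the next at 7.92. Hp stood at 279 CPM in PNF E18.5 A (next 19.5), 939 in PNF P1 B (next 12.1) and 421 in PPF P30 A (next 17.3). Rasd1 stood at 176 CPM in PNF E18.5 A (next 74.1), 321 in PNF P1 A (next 68.7) and 342 in PPF P30 A (next 119). Sod2 stood at 732 CPM in PNF P1 B (next 196), Il6 at 118 in PNF E18.5 A (next 18.9) and Serpina3n at 3798 in PPF P30 A (next 1772). The library PNF P1 B thus held the high value of Saa3, Hp and Sod2 in its group, and PPF P30 A that of Hp, Rasd1 and Serpina3n.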

How the results depend on the processing

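The members' share followed the rule. In tube 1 it was 9.49%, and 12.2% at 4 UMIs, 7.24% at 16, 5.16% at 32, 10.6% with 1000 genes per cell, 9.02% at 5% mitochondrial UMIs, 10.2% after thinning and 8.64% in cells with 1 clear hashtag. In tube 2 it was 19.0%, and 45.4%, 9.20% and 4.93% at 4, 16 and 32 UMIs, 16.3% at 5% mitochondrial UMIs, 15.3% after thinning and 13.7% with 1 hashtag. The 69 higher genes became 6 at 4 UMIs, 111 at 32, 165 at a ratio of 1.5, 16 at a ratio of 3 and 121 without Prg4-positive cells of the same sum. The 21 lower genes became 5, 54 and 81 at 4, 16 and 32 UMIs, 4 at 5% mitochondrial UMIs, 9 with 1 hashtag, 194 and 0 at ratios of 1.5 and 3, 3 at a floor of 50 UMIs and 36 without the Prg4-positive cells. The settings of 32 UMIs, 1 hashtag and the Prg4-positive cells were added after seeing the data. At a threshold of 4 UMIs none of the named genes kept its call. Timp1 lost its call in 5 of 12 alternatives, and Hp, Il6 and Fst in 2 each. Krt17 in tube 2 turned to a ratio of 1.29 at 4 UMIs and 2.07 without cells with markers of another type, and Adamts18 to 1.53 at 4 UMIs. The cause of these shifts was not tested. Leaving out doublet calls was not run, since the caller marked 0 cells.

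In bulk, PPF against PNF gave 105 calls, and 836 with DESeq2, 782 with limma-voom, 426 without a filter on low counts, 17 with libraries A and B alone (added after seeing the data), and 2 to 1574 on leaving out 1 library, with 1574 (1369 higher and 205 lower, against 13 and 92) without PNF P30 B, 2 without PPF P1 A or PPF P1 B and 3 without PPF E16.5 A. Age gave 621 (509 higher and 112 lower), and 1548 with DESeq2 (1040 and 508), 1143 with limma-voom (580 and 563), 38 with libraries A and B alone, and 225 (without PNF E16.5 A) to 2326 (without PNF P30 B, 377 higher and 1949 lower). Over 28 pairs of letter A libraries of different groups, deviations from group means correlated from -0.10 to 0.14, which gave no sign of pairing by that letter. Other letters were not checked. A replicate block over libraries A and B left 6 calls for lineage and 26 for age, and Il6 with age at log2 2.62 (adjusted p = 0.250 by edgeR). The 5 acute phase genes were not called with the block either.

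Signs that turned belong to values that did not pass the test, except that Cp was called with all libraries and Epas1 with age passed once turned, without PNF P30 B (log2 -4.84, adjusted p = 0.0382 by edgeR). With lineage, Saa3 went to 1.31 with limma-voom and 1.66 with the replicate block, and over the leave-one-out fits from -0.73 to 1.82. Sod2 went to 0.12 with limma-voom. Leave-one-out ranges were -0.0579 to 0.31 for Mt2, -0.28 to 0.0709 for Sod2, -0.0372 to 0.45 for Rasd1 and -0.89 to 1.91 for Epas1. With age, Sod2 went to -0.0859 with limma-voom and -0.00776 with libraries A and B, Hp to -0.98 with limma-voom and Ptgs2 to 1.93 with DESeq2. Leave-one-out ranges were -2.14 to 2.86 for Saa3, -0.19 to 0.33 for Sod2, -0.99 to 1.69 for Hp, -5.61 to 1.70 for Ptgs2, -4.84 to 0.55 for Epas1 and -0.80 to 4.39 for Cp. Il6 kept its age call in all 24 such fits (log2 2.59 to 3.29, highest edgeR adjusted p = 0.0228). Cxcl5 had too few bulk counts to be tested, so no difference in it was detectable at this depth.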

Other observations

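Some genes outside the fixed lists were at least 2-fold higher in members of both tubes and are given as values, chosen after they were seen. Spp1, osteopontin, had ratios of 2.62 and 6.14, and Calca, the calcitonin and CGRP gene, of 2.44 and 5.73. In tube 1 Spp1 stood at 163 CPM at sums of 8 to 15, but 21.8 at 16 to 31 and 45.2 at 32 or more. Calca, and Gdnf below, had 20 UMIs in the members of tube 1, which is the floor itself. Fgf23, a phosphate-regulating hormone made chiefly in bone, had ratios of 7.26 and 2.29, and Gdnf, a neurotrophic factor, of 2.27 and 2.77, beside its receptor Gfra1 at 2.02 and 2.57. Fcgr2b, the inhibitory Fc receptor, had ratios of 5.79 and 2.36, and Mcoln2, an endolysosomal channel, of 6.43 and 2.28. Ptgir, the prostacyclin receptor, had ratios of 2.92 and 2.68, and Apln, the vascular peptide apelin, of 3.07 and 2.56. Angptl4, a lipase inhibitor, had ratios of 2.31 and 2.08, and Slc39a14 of 3.19 and 2.10.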
